A study of Mus musculus with 64 samples.

Results

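The clones H, K and V were set against the clones E, M, N and T, 7 lines of pancreatic tumor cells of the mouse that were each grown from 1 cell of a single tumor-derived line. The contrast used the 28 mono-culture libraries of these clones out of 64 libraries in the series, 12 for H, K and V and 16 for E, M, N and T, with 4 libraries for each clone. The remaining libraries were 4 mono-culture libraries of a further line, KPC1, and 32 libraries of the same 8 lines after 48 h of coculture with fibroblasts, from which the tumor cells were sorted by their green fluorescence. All 8 lines are labelled as murine pancreatic tumor cells on a mixed C57BL/6 background. The study derived the 7 clones from a KPC mouse, in which Cre driven by the Pdx1 promoter switches on the engineered alleles, among them a mutant Trp53 allele beside a wild-type copy. All groups compared here therefore share the alleles of that mouse, and no line of these clones without them was sequenced. The origin of KPC1 is not given in the sources used here, nor is the age of any animal or the source of the fibroblasts.

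The 3-against-4 split was chosen from the mono-culture libraries themselves, as the one among all such splits with the most genes past the threshold, and it cuts across the metabolic groups of the study, in which E, H and V form group 1 and K, M, N and T form group 2. Mono-culture differences between the sides are therefore given as a description, with no test. The SE beside such a difference comes from the same fit that chose the genes, and is no measure of precision free of that choice. The coculture libraries and KPC1 took no part in the choice, although the coculture libraries come from the same 7 clones.

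Pancreatic ductal adenocarcinoma cells range between an epithelial state, held by transcription factors such as the grainyhead-like proteins and marked by keratins and cell junctions, and a mesenchymal state with stress fibres, integrins, matrix proteins and N-cadherin. Tumors with much of the pancreatic and gut epithelial programme, including Pdx1, cadherin 17 and galectin 4, are called classical. Cells need not switch all of these genes together.

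Library totals ran from 12994330 to 19486215 counts for H, K and V, from 11661214 to 21333683 for E, M, N and T and from 15576720 to 17038294 for KPC1 in mono-culture. Each of the 64 libraries correlated best with a library of its own line and culture (lowest best r = 0.975). The ductal keratin Krt19 was present in all 7 clones, at between 168 and 910.3 counts scaled to the library total as CPM, and Pdx1 at between 51.5 and 198.5 CPM, whereas the epithelial adhesion molecule Epcam was below 0.4 CPM in each of them. Vim, the intermediate filament of mesenchymal cells, stood at 3474 CPM or more in every clone. The leukocyte gene Ptprc was below 0.1 CPM in every line in mono-culture, and of 15 fibroblast markers 3 were at 0 counts on either side. The 4 mono-culture libraries of K, and no others of H, K and V except 1 of H, carry sample numbers above 43, as do 3 of the 16 libraries of E, M, N and T and 3 of the 4 of KPC1, so that for K this range of numbers and the clone cannot be told apart. What the numbers stand for is not given in the sources used here.

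Over 14829 genes tested with edgeR on the 4 libraries of each clone summed, 475 genes passed an adjusted threshold of 0.1 and form the axis described here. Of these, 284 were higher in H, K and V (1.92% of the genes tested) and 191 were lower (1.29%). In 472 of the 475 the 3 clones did not overlap with the other 4, as did 2526 genes or 17% of all genes tested. The split and the threshold favour such genes, so that a gap between the sides in a single axis gene in mono-culture is no separate evidence. The median absolute difference of the axis genes measured in both cultures was 1.72 on the log2 scale, and 213 genes differed by more than 4-fold. Just inside the threshold stood Greb1, Fbp2, Palmd, Per1 and Dhx38, with log2 differences of 4.07, -4.78, 2.57, -0.72 and 0.55. Just outside stood Pdk4, Crem, 4930412M03Rik, Vezf1 and Khk, with log2 differences of 2.31, 1.44, -1.75, 0.87 and -1.21. The number of genes depended strongly on single clones. It was 1235 without K, of which 446 were among the 475, and 504 without M, but 136 without H, 136 without N, 94 without E, 34 without T and 33 without V.

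A position on the axis was computed for each line, as the median over the 475 genes of the level of the line on a scale that sets the mean of E, M, N and T to 0 and the mean of H, K and V to 1. By construction the 2 sides stand at its ends. Mono-culture positions were 0.974 for H, 0.936 for K and 1.08 for V, against 0.0141 for E, 0.0687 for M, -0.0121 for N and -0.066 for T. The 4 libraries of K spread from 0.73 to 1.06 (SD 0.165), wider than those of any other clone, with H between 0.962 and 1.03 and V between 1.07 and 1.11. The position of K changed most when the axis was drawn again without the clone being placed. K then stood at 0.395 over 1203 genes, M at 0.347 over 504 genes, and H at 0.756 and V at 1.00 over 135 and 33 genes. E, N and T then stood at 0.0732, 0.101 and -0.0953.

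**Figure D1:**
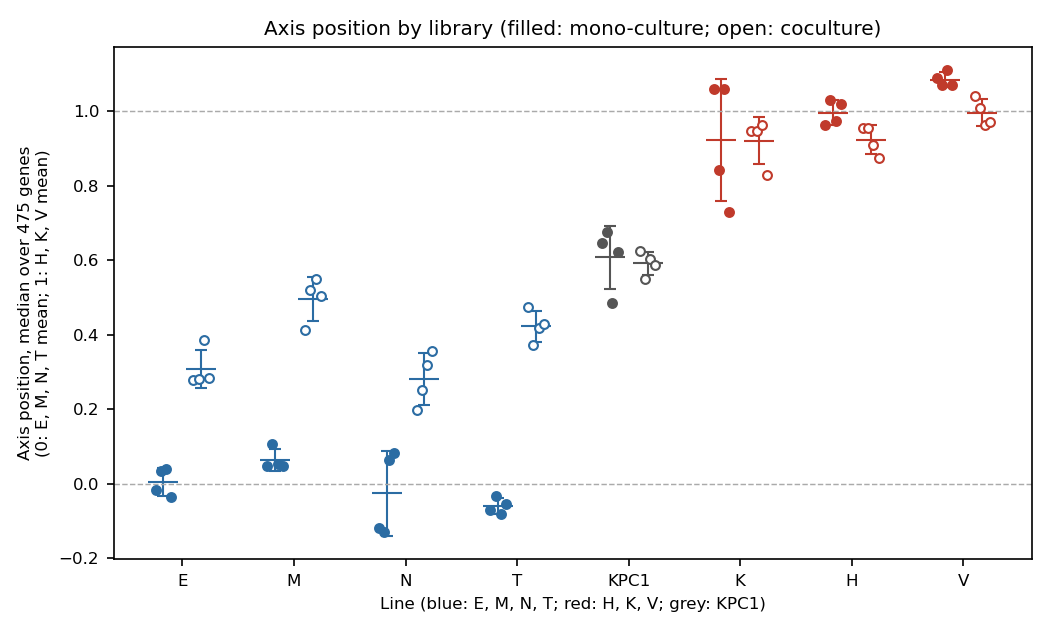
Axis position of each of the 64 libraries, by line on the x axis, as the median over 475 genes on a scale from 0 (mean of E, M, N and T in mono-culture) to 1 (mean of H, K and V in mono-culture). Filled points are mono-culture and open points coculture libraries, bars give the mean and SD of 4 libraries; KPC1 lies between the sides at 0.485 to 0.676, and E, M, N and T lie higher in coculture than in mono-culture.

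In a principal component analysis of the 2000 most variable genes the first component held 42.5% of the variance of the 7 clones. H and V stood at 76.7 and 91.8 on it and E, M, N and T between -57.6 and -32.2, whereas K lay between them at 5.15. The second component, with 22.5%, placed K at -77.7, at the end occupied by M (-37.7), and N at 53.7. Across all 14829 genes the level of K correlated best with M (r = 0.94) and less with H (0.918) and V (0.915), while H and V correlated with each other at 0.961. These correlations are across genes, which are not independent replicates.

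Among the higher genes was Basp1, which encodes a membrane-bound protein of the cell cortex with a role in actin organization (chromosome 15, 25363277 to 25413764, reverse strand, GENCODE M21 on GRCm38). Basp1 stood at 108 CPM in H, 98.5 in K and 389.8 in V, against 0.128 in E, 0.28 in M, 0.13 in N and 0.16 in T, a log2 difference of 10.12 ± 0.72 (SE). Marcksl1, an actin-binding substrate of protein kinase C, was at 190.4 CPM in H, 149.6 in K and 227 in V against 71.3 in E, 69.3 in M, 59.4 in N and 67.2 in T. Neither gene overlapped between the sides. Of 14 measured genes of actin and contractile fibres 2 were on the axis, both higher, and 12 of the 14 had a positive log2 difference, with a median of 0.88. Over all 14829 genes tested 1.92% were on the axis as higher and 1.29% as lower, 7116 had a positive difference, and the median was -0.02. The counts of the lists below are to be read beside these values. Actn1, which cross-links actin filaments, was at 1220 CPM in H, 1229 in K and 948 in V against 461 in E, 522 in M, 432 in N and 417 in T, a log2 difference of 1.30 ± 0.15 (SE). Tpm1, which stabilizes them, was at 1470 ± 65.5 CPM (SD, n = 3) in H, K and V and 601 ± 123 CPM (SD, n = 4) in E, M, N and T. The values of each of these genes in the 7 clones left a clear gap between the sides. Dock8, a guanine nucleotide exchange factor, reached 49.6 CPM in H, 18.5 in K and 31.5 in V against no more than 1.17 CPM in the other 4 clones.

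The integrins and laminins gave 5 higher genes and 1 lower gene of 21 measured, with a median log2 difference of 0.46. The fibronectin receptor subunits Itga5 and Itgb1 were both among the higher genes, at 109.6 CPM in H, 83 in K and 108 in V against 33.5 in E, 37 in M, 46 in N and 45.4 in T for Itga5. Itgb1 was at 559.5 CPM in H, 732 in K and 637 in V against 386 in E, 367 in M, 317 in N and 347 in T, a log2 difference of 0.85 ± 0.14 (SE). The vitronectin receptor subunit Itgb5 differed by 1.09 ± 0.17 (SE) on the log2 scale, and Itgb8 and Itga11 were the further members above, Itga1 the member below. N-cadherin, the product of Cdh2 that replaces E-cadherin in mesenchymal cells, was at 234 CPM in H, 317 in K and 320.3 in V against 114 in E, 57 in M, 77.7 in N and 64.4 in T. Its log2 difference was 1.88 ± 0.27 (SE), and all 3 clones lay at more than 200 CPM where the other 4 lay at 114 or less. Mcam, an adhesion molecule of migrating cells, was at 10.4 CPM in H, 6.79 in K and 21.9 in V against less than 0.7 CPM in each of E, M, N and T.

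Of 17 measured collagens 4 were on the axis, all higher, and 16 of the 17 had a positive difference, with a median of 1.00. Col4a1 of the basement membrane was at 485 CPM in H, 474 in K and 622 in V against 205 in E, 299.8 in M, 247 in N and 309 in T. Col12a1 was at 12.1 CPM in H, 12.7 in K and 16.5 in V against 0.0428 in E, 0.685 in M, 0.203 in N and 0.0581 in T, and Col1a2, which was below 4 CPM in every clone, completed the 4 with Col11a1. The fibrillar Col11a1 was high in H and V only, at 52.8 and 54.6 CPM, while K with 1.56 CPM stood close to the 0.111 to 0.56 CPM of the other clones. Sparc, a secreted protein that binds collagen, was at 1216 CPM in H, 733 in K and 987 in V against 429 in E, 365 in M, 391 in N and 396 in T. Among 21 measured proteases and their inhibitors 3 were higher and none lower. Plau, the urokinase that activates plasminogen at the cell surface, was at 79.7 CPM in H, 58 in K and 109 in V against 17.7 in E, 15.6 in M, 21.6 in N and 17.1 in T, a log2 difference of 2.18 ± 0.24 (SE). The gelatinase Mmp2 stood at 75.3 CPM in H, 0.406 in K and 58.1 in V, and over the 16 libraries of E, M, N and T together it had 1 count, so that no fold is given. As with Col11a1, K was nearer to the 4 clones than to H and V. The third protease, the stromelysin Mmp10, differed by 2.80 ± 0.63 (SE) on the log2 scale.

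Secreted growth factors and their receptors formed a further group. Of 21 measured genes of the FGF, PDGF, HGF and VEGF systems 4 were higher and none lower, and 3 of the 4 encode PDGF ligands, which act on the receptors of fibroblasts and pericytes. Pdgfb was at 90.6 CPM in H, 114 in K and 142 in V against 22.7 in E, 15 in M, 24.5 in N and 29.1 in T, a log2 difference of 2.33 ± 0.26 (SE). Pdgfc was at 84 CPM in H, 70.3 in K and 82.8 in V against 30.6 in E, 23.9 in M, 25.1 in N and 44.4 in T, and Pdgfa differed by 1.17 ± 0.24 (SE) on the log2 scale. The FGF receptor Fgfr1 was at 272 CPM in H, 343 in K and 266 in V against 56.3 in E, 110 in M, 77.2 in N and 68.9 in T. No value of these 4 genes in H, K or V fell into the range of the other side. Inhbb, the subunit of activin B and 1 of 2 axis genes among 25 of the TGF-beta and BMP systems, was at 47.8 CPM in H, 4 in K and 77.3 in V against at most 0.202 CPM. Sphk1, the kinase that makes the lipid signal sphingosine 1-phosphate, was at 76.2 CPM in H, 60.9 in K and 66.3 in V against 17.2 in E, 14.4 in M, 18.6 in N and 12.6 in T, a log2 difference of 2.10 ± 0.19 (SE).

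The Wnt list held 4 higher genes and none lower of 28, with a median log2 difference of 0.82. The ligand Wnt10b was at 26.6 CPM in H, 2.52 in K and 24.1 in V against no more than 0.508 CPM on the other side. The receptor Fzd4 was at 9.04 CPM in H, 9.13 in K and 19.6 in V against 1.94 in E, 0.623 in M, 1.46 in N and 0.61 in T, and the receptor Fzd8 differed by 3.15 ± 0.67 (SE) on the log2 scale. The nuclear partner of beta-catenin, Lef1, was at 0.781 CPM in H, 6.71 in K and 12.8 in V against at most 0.311 CPM. The ranking of the 3 clones was not the same for the ligand, which was lowest in K, and for Lef1, which was lowest in H. Of 18 measured targets of YAP and TAZ, the transcriptional co-activators that answer to cell tension and act through TEAD factors, 2 were higher and 14 had a positive difference. They were Ctgf, at 275 CPM in H, 432 in K and 243 in V against 69.8 in E, 79 in M, 45.1 in N and 81.6 in T, and Ankrd1, at 248 CPM in H, 598 in K and 241 in V against 128 in E, 73.1 in M, 50.3 in N and 57.7 in T. For both genes K had the highest value of the 7 clones.

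The cell cycle list gave 2 higher genes of 29, the neighbouring inhibitors Cdkn2a and Cdkn2b on chromosome 4. Cdkn2a, which encodes the p16 and p19 inhibitors, was at 231 CPM in H, 493 in K and 464 in V against 115 in E, 164 in M, 93.4 in N and 80.3 in T. Cdkn2b was at 129 CPM in H, 266 in K and 236 in V against 71.7 in E, 51.8 in M, 85.7 in N and 72.8 in T, a log2 difference of 1.56 ± 0.28 (SE). Both were present in all 8 lines. The list as a whole leaned the other way, with a median of -0.56 and 6 positive members. Smad4, which transmits TGF-beta signals and is often lost in this cancer, was at 166 CPM in H, 135 in K and 152 in V against 99.7 in E, 97.8 in M, 104 in N and 97.2 in T.

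Cdh2, Fzd8 and Smad4 lie on chromosome 18, where the axis genes were most frequent. Of 397 genes tested on this chromosome 25 were higher and 4 lower, 7.3% in all against 3.2% over all chromosomes, and the median log2 difference of the whole chromosome was 0.35 in mono-culture and 0.35 in coculture. Against the mean of the 7 clones, the median level of its genes was 0.32 in H, 0.27 in V and 0.04 in K on the log2 scale, against -0.10 to -0.20 in E, M, N and T and 0.00 in KPC1. Chromosome 19 leaned the opposite way, with 16 lower and 6 higher axis genes of 499 tested and a median of -0.30 (-0.25 in coculture). H and V stood at -0.25 and -0.27 and K at 0.03, while M stood at 0.29. Chromosomes 13 and 12 also leaned higher, with medians of 0.27 and 0.23 (0.25 and 0.25 in coculture). Chromosome 13 held 14 higher and 2 lower axis genes of 544 tested, 2.94% in all. Chromosome 12 held 15 higher and 4 lower of 481, 3.95% in all. A difference in the number of chromosome copies was not measured.

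**Figure D2:**
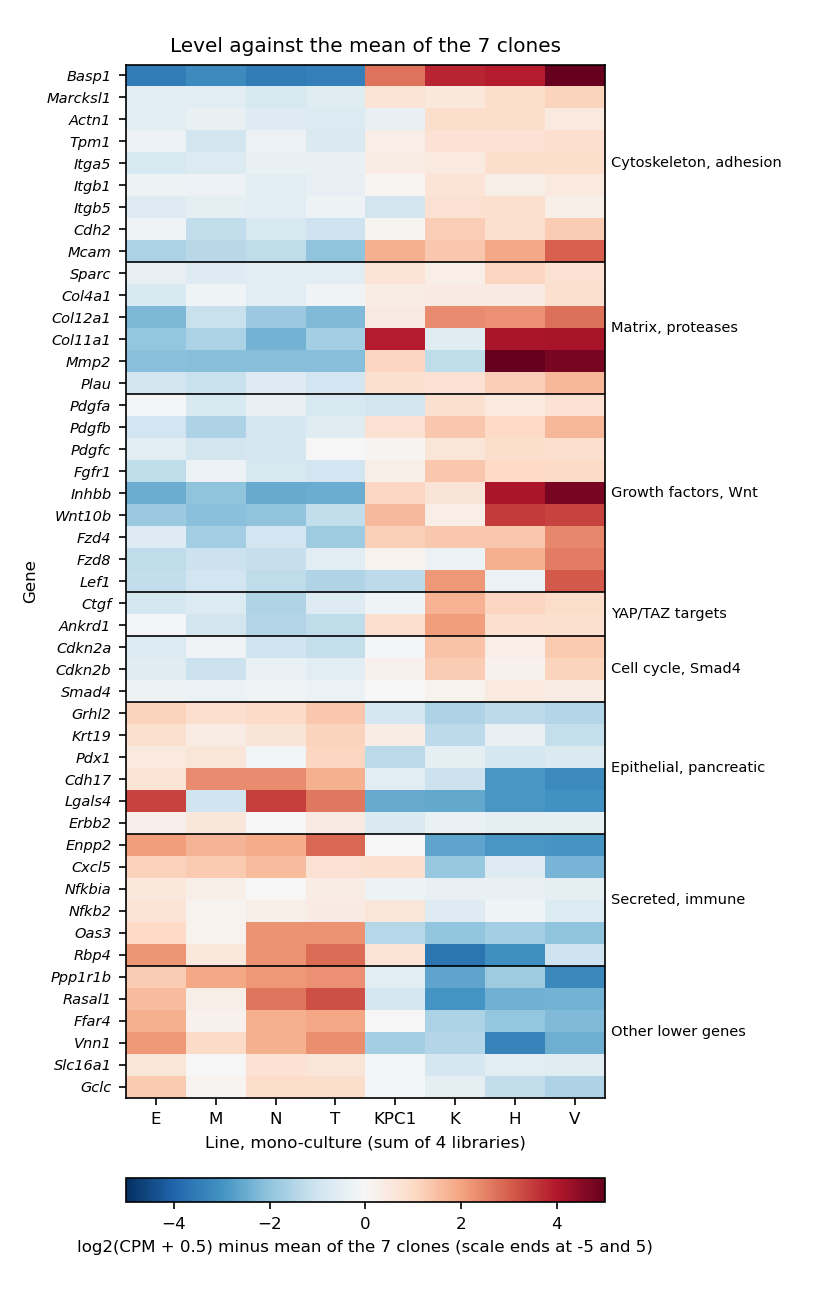
Level of named axis genes in mono-culture, as log2(CPM + 0.5) minus the mean of the 7 clones, with red above and blue below that mean and each square the sum of 4 libraries of 1 line. The genes of the upper groups are mostly red in K, H and V and the lower groups blue there. Exceptions are Col11a1, Mmp2 and Fzd8, which are below the mean of the 7 clones in K, Lef1 in H, and Lgals4, which is below it in M, and KPC1 is mixed.

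The lower side of the axis held some epithelial and pancreatic genes. Grhl2, a transcription factor that maintains epithelial junctions, was at 0.606 CPM in H, 0.457 in K and 0.503 in V against 5.51 in E, 4.5 in M, 4.92 in N and 6.58 in T, a log2 difference of -3.37 ± 0.30 (SE). Krt19 was at 322 CPM in H, 168 in K and 185 in V against 737 in E, 538 in M, 652 in N and 910.3 in T, a log2 difference of -1.67 ± 0.30 (SE). These were the 2 axis genes among 17 measured epithelial junction genes and keratins, of which 7 had a positive difference. The median of the list was -0.10, against -0.02 over all genes tested. Jup, Pkp3 and Krt7 were among the 7, with log2 differences of 0.93, 1.53 and 1.23, and did not pass the threshold. E-cadherin itself did not divide the clones in this way: Cdh1 was at 48.7 CPM in H, 6.03 in K and 306 in V against 140.1 in E, 0.996 in M, 99.9 in N and 37.6 in T, with its highest value in V and its lowest in M. Of 15 measured genes of the classical subtype 3 were lower and none higher, and 4 had a positive difference. Among these 4, Gata6 had the largest difference, 3.01 on the log2 scale, and did not pass the threshold. The tetraspanin gene Tspan8, also 1 of the 4, did not pass the threshold either. It was at 204 CPM in H, 158 in K and 215 in V against 69.5 in E, 125 in M, 60.5 in N and 105 in T, higher in each of H, K and V. The pancreatic factor Pdx1 was at 51.5 CPM in H, 69.6 in K and 58 in V against 134 in E, 146 in M, 87.1 in N and 198 in T. Cdh17, a cadherin of the gut epithelium, was at 0.335 CPM in H, 2.49 in K and 0.198 in V against 9.57 in E, 32.1 in M, 31.5 in N and 21.1 in T. The galectin gene Lgals4 was at 1.45 CPM in H, 2 in K and 1.28 in V against 150.1 in E, 6.82 in M, 161 in N and 91.5 in T, so that M came close to H, K and V where the other 3 clones did not. The receptor tyrosine kinase gene Erbb2, the only axis gene of 13 in the EGF family list, was at 44.6 CPM in H, 49.7 in K and 45.7 in V against 76 in E, 94.1 in M, 64 in N and 87.5 in T.

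Several secreted and signalling proteins were also on the lower side. Enpp2 (chromosome 15, 54838901 to 54952892, reverse strand) encodes autotaxin, the secreted enzyme that makes lysophosphatidic acid. It was at 3.3 CPM in H, 4.12 in K and 3.14 in V against 119.5 in E, 91.7 in M, 102 in N and 204 in T, a log2 difference of -5.21 ± 0.37 (SE). The neutrophil chemokine Cxcl5 was at 8.13 CPM in H, 3.13 in K and 2.21 in V against 29.4 in E, 33.1 in M, 39.6 in N and 22.1 in T. Neither of these genes overlapped between the sides. The retinol carrier Rbp4 (chromosome 19, 38116629 to 38125281, reverse strand) was at 7.11 CPM in H, 4.46 in K and 30.4 in V against 289 in E, 90.1 in M, 297 in N and 430.1 in T, a log2 difference of -4.33 ± 0.88 (SE). Ppp1r1b, an inhibitor of protein phosphatase 1, was at 5.05 CPM in H, 2.59 in K and 1.55 in V against 45.8 in E, 72.8 in M, 86.3 in N and 93.9 in T. Rasal1, a GTPase-activating protein, was at 0.415 CPM in H, 0.102 in K and 0.426 in V against 13.9 in E, 5.39 in M, 30.2 in N and 44.1 in T. For Rbp4 the nearest values of the sides were those of V and M. The fatty acid receptor Ffar4 differed by -3.72 ± 0.50 (SE) and the pantetheinase Vnn1 by -4.33 ± 0.63 (SE) on the log2 scale.

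Of 14 measured NF-kB targets 2 were lower and 1 higher. The inhibitor Nfkbia was at 40.8 CPM in H, 40.4 in K and 36.9 in V against 75.2 in E, 65.3 in M, 53.8 in N and 68.7 in T, and Nfkb2, which encodes the p100 precursor, at 129.5 CPM in H, 95.8 in K and 93.2 in V against 246 in E, 171 in M, 186 in N and 202 in T. The member that went the other way, Tnfaip3, encodes an enzyme that limits this signal, and was at 32.7 CPM in H, 28.8 in K and 35.6 in V against 9.1 in E, 16.2 in M, 11.9 in N and 7.17 in T. Of 25 interferon-stimulated genes Oas3 and Oas2 were lower and none higher. Oas3 was at 0.143 CPM in H, 0.0339 in K and 0.0152 in V against 3.72 in E, 1.88 in M, 9.32 in N and 9.56 in T. The Oas genes have near copies in the mouse, and the way the reads were divided among them is not given in the sources used here. None of 13 measured genes of MHC class I presentation passed the threshold, 12 had a negative difference, and the median was -1.21.

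Of the lists not yet counted, the Notch list held 2 higher genes of 13 measured, Lfng and Notch4, and none lower. The mesenchymal effectors held 3 higher of 16, Cdh2, Sparc and Mmp2, and none lower. The remaining lists held no axis gene or 1. The share of axis genes among all genes tested was 3.2%, so that no axis gene or 1 in a short list is near that share. Of 8 measured factors of the epithelial-mesenchymal transition none was on the axis. The sides did not overlap in 4 of the 8 in the higher direction and in 1 in the lower. Over all 14829 genes tested this held for 1256 and 1270 genes. Of the 8 factors 6 had a positive difference. Twist2, the 1 in the lower direction, was at 9.62 CPM in H, 32.9 in K and 4.08 in V. In E, M, N and T Twist2 was at 44.5, 42.6, 36.5 and 46.8 CPM. Snai2 also had a negative log2 difference, -0.255. Prrx1 was at 91.1 CPM in H, 42.2 in K and 44.7 in V against 1.25 in E, 4.05 in M, 17.6 in N and 7.61 in T, and Zeb1 at 102 CPM in H, 83.1 in K and 92.8 in V against 79.5 in E, 72.3 in M, 79.4 in N and 79.3 in T. Of 30 genes of amino acid synthesis and the integrated stress response none was on the axis, with a median log2 difference of -0.74. The member with the smallest p was the amino acid transporter subunit Slc3a2, at 175 CPM in H, 254 in K and 133 in V against 408 in E, 294 in M, 575 in N and 368 in T. Among 24 genes of glycolysis and lactate only the lactate transporter Slc16a1 was on the axis, at 178 CPM in H, 144 in K and 171 in V against 393 in E, 255 in M, 424 in N and 395 in T, and among 25 targets of Nrf2 only Gclc, which makes glutathione, at 46.1 CPM in H, 78.2 in K and 36.3 in V against 267 in E, 118 in M, 206 in N and 196 in T. No axis gene was found among 16 targets of p53, 17 of ERK feedback, 16 of the Myc network, 28 of lipid synthesis or 13 genes of the mitochondrial genome. In all, 49 of the 475 axis genes (10.3%) were on any of the 42 lists, and 426 were on none.

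**Figure D3:**
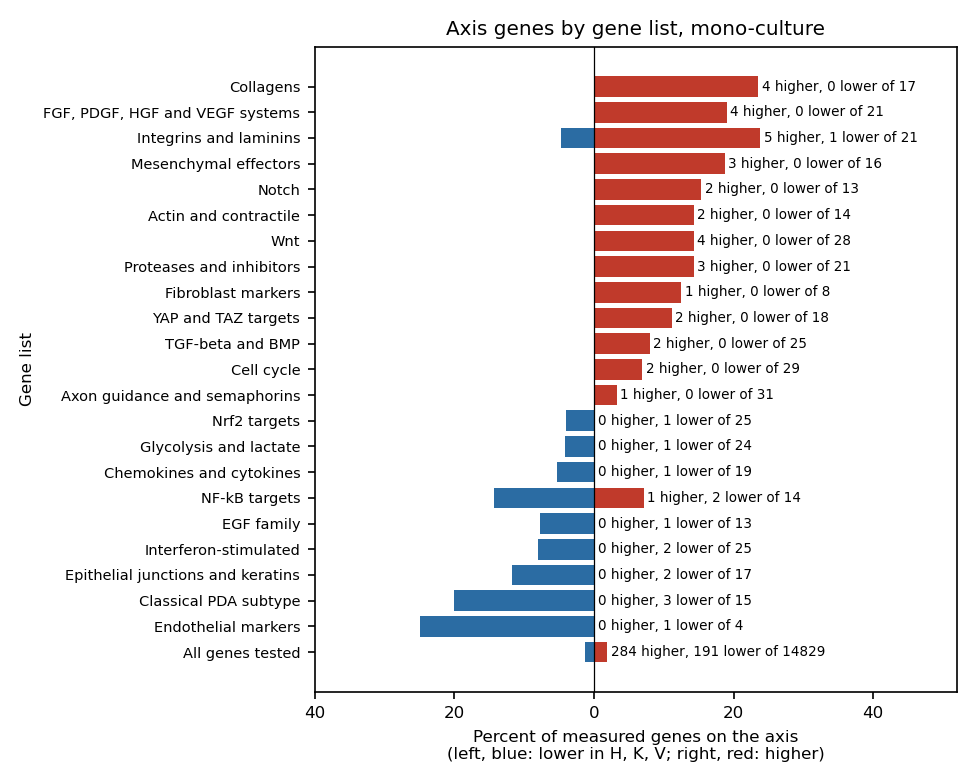
Percent of the measured genes of each list that were on the axis in mono-culture, higher in H, K and V to the right in red and lower to the left in blue, for the lists with at least 1 axis gene and, at the bottom, all 14829 genes tested. Collagens, growth factor systems, integrins and mesenchymal effectors lie to the right and the classical and epithelial lists to the left; the longest blue bar is 1 of 4 endothelial markers, Vwf.

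Promoters of 4 axis genes are shown, 2 higher and 2 lower, chosen after their values were seen from the genes with a matched promoter. Basp1 and Rbp4 are described again in coculture below, Ankrd1 is a target of YAP and TAZ and Lgals4 a gene of the classical subtype. The sequences are those of RefSeq on GRCm38.p6, on the strand of the gene from 250 bases before to 50 bases after the start, with matches in either direction to the TEAD motif GGAATG, the AP-1 motif TGANTCA, the E-box CACCTG read by ZEB and SNAI factors and the grainyhead-like motif AACCNGTT in capitals.
Basp1, chr15:25413715-25414014, reverse strand: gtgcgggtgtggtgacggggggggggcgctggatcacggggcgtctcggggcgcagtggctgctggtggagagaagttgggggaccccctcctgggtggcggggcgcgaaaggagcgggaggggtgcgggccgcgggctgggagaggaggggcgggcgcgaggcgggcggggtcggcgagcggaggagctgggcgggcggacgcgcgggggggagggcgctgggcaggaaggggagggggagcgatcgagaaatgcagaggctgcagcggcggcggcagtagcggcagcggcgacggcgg
Ankrd1, chr19:36119795-36120094, reverse strand: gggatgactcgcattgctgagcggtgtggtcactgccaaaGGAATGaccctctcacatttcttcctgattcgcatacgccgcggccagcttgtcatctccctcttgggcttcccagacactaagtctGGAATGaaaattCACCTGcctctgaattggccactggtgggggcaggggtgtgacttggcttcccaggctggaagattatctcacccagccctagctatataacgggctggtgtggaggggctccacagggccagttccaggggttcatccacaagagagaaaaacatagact
Rbp4, chr19:38125272-38125571, reverse strand: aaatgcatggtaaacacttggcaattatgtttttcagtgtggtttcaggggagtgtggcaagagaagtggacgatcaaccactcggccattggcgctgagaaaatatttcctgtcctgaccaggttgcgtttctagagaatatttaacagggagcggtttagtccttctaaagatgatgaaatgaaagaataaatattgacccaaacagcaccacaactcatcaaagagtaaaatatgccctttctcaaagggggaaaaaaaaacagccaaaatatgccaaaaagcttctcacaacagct
Lgals4, chr7:28833544-28833843, forward strand: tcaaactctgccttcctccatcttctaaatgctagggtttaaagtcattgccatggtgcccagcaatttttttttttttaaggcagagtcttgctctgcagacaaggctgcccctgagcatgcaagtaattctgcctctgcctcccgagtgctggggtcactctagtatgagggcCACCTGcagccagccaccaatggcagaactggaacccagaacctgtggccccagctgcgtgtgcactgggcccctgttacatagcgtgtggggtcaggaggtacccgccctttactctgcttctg
The window of Ankrd1 held the TEAD motif at 2 places, whose first bases lie 210 and 123 bases before the start, and the E-box at 1 place, 111 bases before it. The window of Lgals4 held the E-box 75 bases before the start, and the windows of Basp1 and Rbp4 held none of the 4 motifs. The window of Basp1 was 78% G and C, against 40.7% for Rbp4. A promoter could be matched for 202 of the 284 higher genes, 132 of the 191 lower genes and 10542 of all genes tested. The TEAD motif was in 16.8% of the higher, 9.85% of the lower and 12% of all promoters. The AP-1 motif was in 7.92%, 6.82% and 5.25% of them, the E-box in 19.3%, 17.4% and 17.4%, and the grainyhead-like motif in 1.49%, 2.27% and 1.74%. These shares are a description of letters and not of bound factors.

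On the scale set by the clones, KPC1 was placed between the sides. Its mono-culture position was 0.614 from the summed libraries, and its 4 libraries stood at 0.485, 0.623, 0.646 and 0.676 (mean 0.608 ± 0.0845, SD, n = 4), above all 16 libraries of E, M, N and T (-0.13 to 0.107) and below all 12 of H, K and V (0.73 to 1.11). The lowest of the 4 was the only one whose sample number is 43 or below. The higher genes placed KPC1 at 0.579 and the lower genes at 0.651. The ranges of the clones come from libraries that chose the genes, whereas KPC1 took no part in that choice. On axes drawn without the clone being placed, K stood at 0.395, H at 0.756, V at 1 and M at 0.347. KPC1 stood at 0.668, 0.469, 0.604 and 0.61 on these axes, above K and M and below H and V. Its place below all of H, K and V was thus not kept when K was left out of the axis. The middle position was not the level of every gene. Of the 472 genes in which the sides did not overlap, KPC1 fell into the gap between them in 223 (47.2%), within the range of H, K and V in 131 (27.8%) or past it in 23, and within the range of E, M, N and T in 77 (16.3%) or past it in 18. Over all 14829 genes KPC1 correlated best with H (r = 0.965) and V (0.949) and least with K (0.905) and M (0.91).

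Some matrix and pancreatic genes were at the level of H, K and V in KPC1. Col11a1 was at 47.2 CPM in KPC1, and Sparc at 918 CPM and Plau at 60.3 CPM lay within the range of the 3 clones. Lgals4 was at 2.02 CPM, next to K, and Pdx1 at 36.8 CPM and Erbb2 at 37.8 CPM were below all 7 clones. In contrast, Actn1 at 514 CPM, Itgb5 at 219.6 CPM, Pdgfa at 8.11 CPM and Lef1 at 0.137 CPM were at or below the level of E, M, N and T. Krt19 at 546 CPM, Cxcl5 at 23.2 CPM, Rbp4 at 101 CPM and Nfkb2 at 228 CPM also lay within the range of these 4 clones. Between the sides were Basp1 at 45.2 CPM, Cdh2 at 146 CPM, Pdgfb at 77.3 CPM, Fgfr1 at 167 CPM, Grhl2 at 0.99 CPM and Enpp2 at 28.1 CPM. Genes of 1 list could fall on different sides in KPC1. Of the matrix genes Col4a1 at 456 CPM and Col12a1 at 3.01 CPM lay between the sides, as did the classical gene Cdh17 at 3.71 CPM. Its position is 1 line's value, and no test of it was made.

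The coculture libraries had not chosen the split, but they come from the 7 clones that did. They are a repeat measurement of these clones and not of new ones. Differences between the clones that last in both cultures carry over, so that the coculture p-values are not free of the choice of the split. In 3 sums against 4, edgeR's quasi-likelihood test with Benjamini-Hochberg adjustment called 2 of 14737 genes (0.0136%), 1 higher and 1 lower, both of them axis genes. Cdh2 was higher, at 217 CPM in H, 260.1 in K and 246 in V against 97.5 in E, 93.6 in M, 88.9 in N and 96.7 in T, a log2 difference of 1.36 ± 0.13 (SE) with an adjusted p = 0.0715 by edgeR's test. Rbp4 was lower, at 10.2 CPM in H, 8.37 in K and 15.8 in V against 139 in E, 87.3 in M, 152 in N and 89.6 in T, a log2 difference of -3.35 ± 0.34 (SE) with an adjusted p = 0.0715 by edgeR's test. The clones of the sides did not overlap for either gene. Both calls are lost when any 1 of H, V, E, N or T is left out, and both hold without K and without M. Without the second library of each clone 1 call is left. Next in order stood Glipr1, Basp1, Lpcat2 and Rasal1, each with an adjusted p of 0.112 by the same test. Basp1 differed by 4.59 ± 0.55 (SE) on the log2 scale, at 133 CPM in H, 79.3 in K and 392 in V against 6.18 in E, 7.38 in M, 8.68 in N and 11.2 in T, and Rasal1 by -6.52 ± 0.81 (SE).

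The axis genes as a whole kept their direction in coculture and differed by less. Of the 445 axis genes measured there, 285 (64%) had an unadjusted p below 0.05, all 285 in the mono-culture direction, against 1288 genes or 8.74% of all genes tested. The clones did not overlap, in the mono-culture direction, in 215 of the 445 (48.3%), against 8.82% of all genes in either direction. The sign was kept by 439 (98.7%). The median difference in the mono-culture direction went from 1.72 to 0.84 on the log2 scale. Because these genes were chosen for large mono-culture differences, a smaller median is expected in any repeat measurement of the clones. The part of coculture in this fall was not tested. The clones are the same in both cultures, and these counts say nothing of other lines. Of the groups described above, 7 of 30 measured Wnt genes, 8 of 18 actin genes and 5 of 17 epithelial genes had an unadjusted p below 0.05 in coculture, the Wnt genes all higher, the epithelial genes all lower and 7 of the 8 actin genes higher. So had 7 of 24 proteases and inhibitors, 6 of them higher, and 6 of 25 genes of glycolysis and lactate, all lower. In the cell cycle list there were 6 of 29, 2 higher and 4 lower. The mesenchymal effectors had 5 of 20, 4 higher and 1 lower, and the growth factor systems 4 of 23, all higher. The classical subtype had 3 of 15, all lower, and the factors of the epithelial-mesenchymal transition 3 of 9, 2 higher and 1 lower. The interferon-stimulated and lysosomal lists are given below. Among the collagens there were 3 of 18, and their median went from 1.00 in mono-culture to 0.21. Among the targets of YAP and TAZ there were 3 of 18, with a median of 0.38. Of the integrins and laminins 6 of 22 had such a p, all higher, while the median of the list was -0.05. By DESeq2 the adjusted threshold was passed by 445 genes in all. Among them were 4 Wnt, 3 actin, 3 epithelial, 4 protease and 3 integrin and laminin genes. There were also 2 each of the glycolysis, cell cycle, collagen, and YAP and TAZ lists. The mesenchymal effectors gave 5, the growth factor systems 3, the classical subtype 2 and the transition factors 0.

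**Figure D4:**
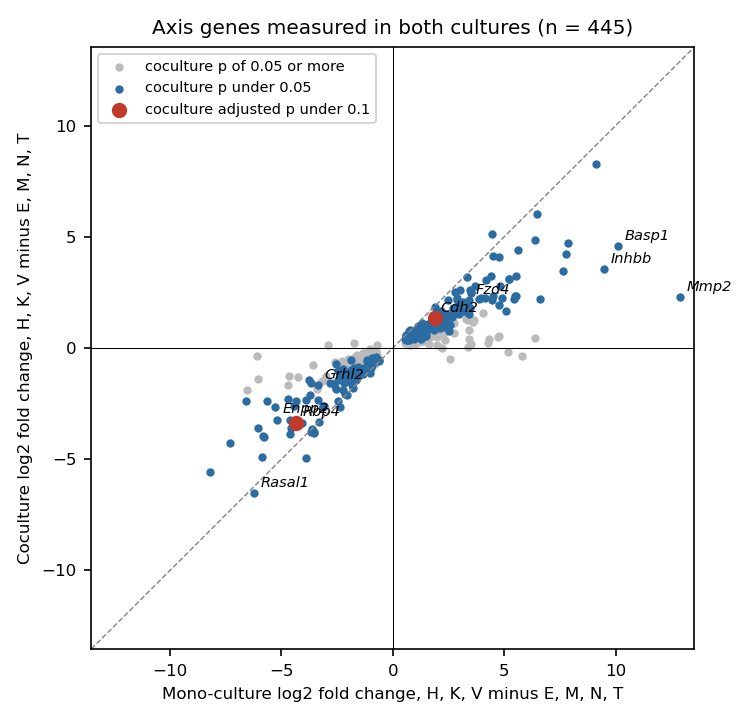
Log2 fold change between H, K and V and E, M, N and T in mono-culture (x axis) and in coculture (y axis) for the 445 axis genes measured in both, with the dashed line at equal values. Blue points had a coculture p below 0.05 by edgeR and the 2 red points, Cdh2 and Rbp4, an adjusted p below 0.1; most points lie nearer to 0 on the y axis than the dashed line.

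The positions of E, M, N and T differed more between the cultures than those of H, K and V. On the mono-culture scale, E stood at 0.3 in coculture, M at 0.48, N at 0.275 and T at 0.414, and their 16 libraries lay between 0.198 and 0.549, all above the highest mono-culture library of these clones (0.107). H, K and V stood at 0.921, 0.911 and 0.99. Of 276 higher axis genes measured in both cultures 180 (65.2%) were higher in coculture than in mono-culture in each of E, M, N and T, against 28.2% of all genes, and of 169 lower axis genes 127 (75.1%) were lower in each of the 4, against 26.2% of all genes. In H, K and V the corresponding numbers were 33 (12%) and 43 (25.4%), against 24.5% and 24.7% of all genes. The mono-culture values that enter these changes are the values that chose the genes, so that no test of the change or of its difference between the sides was made.

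Single genes showed the size of this shift. Basp1, at 0.28 CPM or less in E, M, N and T in mono-culture, was at 6.18 to 11.2 CPM in coculture, and Mcam went from less than 0.7 CPM to between 1.93 and 7.45 CPM. Grhl2 in these clones went from between 4.5 and 6.58 CPM to between 0.587 and 1.2 CPM. In H, K and V Basp1 was at 133 CPM in H, 79.3 in K and 392 in V in coculture, close to its mono-culture values, and Grhl2 below 0.4 CPM. Ctgf narrowed from both sides, to 180.5 CPM in H, 249.6 in K and 134 in V against 82.2 in E, 201 in M, 76.5 in N and 125 in T, and Col12a1 no longer separated the clones, at 15.5 CPM in H, 31.4 in K and 12.8 in V against 13.5 in E, 18.2 in M, 45 in N and 26.5 in T.

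Fibroblast markers moved with the culture. The summed level of 15 fibroblast markers was 101 to 272 CPM in E, M, N and T and 133 to 1040 CPM in H, K and V in mono-culture, and 631 to 1200 CPM and 843 to 1880 CPM in coculture. Thy1 was at 0 in every mono-culture sum and at 6.14 to 16.3 CPM in every coculture sum, and Postn went from below 0.1 CPM to between 40.9 and 75.4 CPM. The largest member before coculture was Cxcl12 in K, at 882 CPM. Mmp2, Col12a1 and Sparc, which fibroblasts also express, were higher in coculture in E, M, N, T and K, Mmp2 going from 1 count to between 5.34 and 8.5 CPM in E, M, N and T, but each was lower in V, and Mmp2 and Sparc were lower in H as well. The part of fibroblast RNA in the coculture values was not tested. Fewer cells of a type and less RNA per cell cannot be told apart in these libraries.

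**Figure D5:**
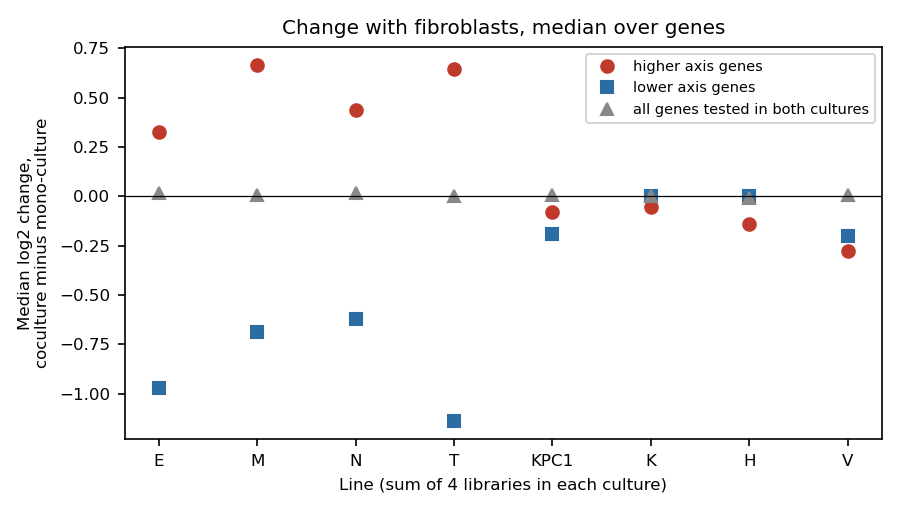
Median log2 change from mono-culture to coculture in each line (y axis) over the higher axis genes (red circles), the lower axis genes (blue squares) and all genes tested in both cultures (grey triangles). In E, M, N and T the higher genes lie at 0.325 to 0.667 and the lower genes at -1.14 to -0.62, while in K, H, V and KPC1 both sets lie between -0.277 and 0.

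The position of KPC1 was close in both cultures. Its coculture position was 0.597 on the mono-culture scale (4 libraries, 0.551 to 0.625), against 0.614 in mono-culture, and its higher and lower axis genes had median changes of -0.08 and -0.19 on the log2 scale. Because E, M, N and T had moved, KPC1 came nearer to them: on a scale drawn from the coculture levels of the 7 clones over 445 axis genes it stood at 0.373. Rbp4 was at 71 CPM in KPC1 in coculture, nearer to E, M, N and T, and Basp1 at 57 CPM, nearer to H, K and V.

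Interferon-stimulated genes divided the sides in coculture in the direction opposite to that of Oas3 and Oas2 in mono-culture. Of 31 measured, 14 had an unadjusted p below 0.05 by edgeR, all 14 higher in H, K and V, against 8.74% of all genes, with a median log2 difference of 1.31. None passed the adjusted threshold by edgeR, and 10 did by DESeq2. Ifit1, chosen after its values were seen, was at 23.2 CPM in H, 10.8 in K and 4.3 in V against 2.63 in E, 2.88 in M, 3.17 in N and 2.23 in T, a log2 difference of 2.23 ± 0.52 (SE) with an adjusted p = 0.343 by edgeR's quasi-likelihood test. In mono-culture it was at 1.52 CPM or less in all 7 clones, without a gap between the sides. Of 24 lysosomal genes 11 had an unadjusted p below 0.05, 10 of them higher in H, K and V, with a median of 0.53, and none passed the adjusted threshold by edgeR or DESeq2.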

How the data were processed

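RNA was sequenced as poly-A selected, strand-specific paired-end reads of 76 bases. The authors deposited whole-number counts per gene, and per the labels' processing notes featureCounts, edgeR and mm10 were used; versions and the strand setting of the counting are not given in the sources used here. The authors also deposited RPKM values, used here only in alternatives. No column was left unused. The counts of 4 libraries per clone and culture were summed, since libraries of 1 clone are not separate clones, and H, K and V were compared with E, M, N and T by edgeR 4.0.16 in R 4.3.3 (TMM, filterByExpr, glmQLFit, glmQLFTest, Benjamini-Hochberg threshold 0.1). A floor of 3 counts is 0.0438 to 0.0588 CPM in a sum of 4 libraries, and higher in a single library. The labels do not say that libraries of a clone are separate cultures, and within a clone the spread may be technical. The 7 clones come from 1 tumor, so that p-values measure the spread between these clones. Each SE of a log2 difference is its absolute value divided by the square root of edgeR's quasi-likelihood F statistic. Positions used log2 CPM with a prior count of 0.5, and principal components a prior of 2.

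The members and gene lists were chosen with earlier results of these data known. Genes were named by rule: the 14 per direction with the largest difference among non-overlapping genes of at least 10 CPM, the 6 per direction with the smallest p, up to 4 per list, 5 per direction in coculture, the 5 nearest to the threshold on each side, and line checks. Other members of a list named to complete a count of 5 or fewer, and Ifit1, were chosen after their values were seen. Alternatives were DESeq2 1.42.0, RLE, other filters and thresholds, limma 3.58.1 on RPKM, libraries as samples, libraries with sample numbers up to 43 (a split inferred from the labels), and leaving out clones or libraries. The test was checked on simulated data. Figures were drawn with matplotlib 3.10.9. Some genes are not reported here.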

Additional observations from a re-analysis of the deposited data

Results flagged for a closer look

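In 16 sets of 4 library positions, 3 had a library set apart from the others by Dixon's criterion, which chance meets in about 1 of 20 sets. These were the third coculture library of E at 0.385, the fourth coculture library of K at 0.829 and the second mono-culture library of M at 0.107. Of 16 sets of library totals 1 was set apart, the second coculture library of KPC1 with 11178721 counts. Of 58 named genes 3 had 1 clone of E, M, N and T set apart in mono-culture. Mmp2 was at -5.49 log2 CPM in E, the clone with its single count, Ffar4 at 3.55 log2 CPM in M and Slc16a1 at 7.99 log2 CPM in M.

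With fibroblasts, 38 of 276 higher axis genes (13.8%) were higher than in mono-culture in each of E, M, N and T and lower in each of H, K and V, against 0.992% of all genes measured in both cultures. The reverse course was taken by 11 of 169 lower axis genes (6.51%), against 0.689% of all genes. Sphk1, Marcksl1, Mcam and Ctgf were among the former and Enpp2 among the latter. The difference between the sides was not tested, since the mono-culture values in it chose the genes.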

How the results depend on the processing

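The count of 475 genes in mono-culture became 1926 by DESeq2, 120 at an adjusted threshold of 0.05, 1227 on libraries with sample numbers up to 43 alone, a split inferred from the labels that leaves out K in mono-culture, and 33 to 1235 when 1 clone was left out. With libraries as samples it was 1795 without and 1632 with a replicate block. By limma on log2(RPKM + 1) 222 genes were higher and 232 lower, and with a pseudocount of 0.1 238 and 285, against 284 and 191. In coculture the 2 calls became 445 by DESeq2, 7 without a filter, 4 at a minimum of 5 CPM, 0 at 0.05, 11 and 8 by limma with pseudocounts of 1 and 0.1, 5 on sample numbers up to 43, 345 without and 279 with a replicate block, 0 to 49 without 1 clone and 1 to 9 without 1 replicate number. Of the axis genes, coculture called 326 of 1855 by DESeq2, 0 of 116 at 0.05, 0 to 48 without 1 clone and 1 to 9 without 1 replicate number. The position of KPC1 in mono-culture ranged from 0.469 (without H) to 0.675 and without 1 replicate number from 0.565 to 0.661. Its coculture position of 0.373 was 0.499 as a weighted mean, 0.242 (without H) to 0.503 (without T) without 1 clone, and 0.597 on the mono-culture scale, which was added after seeing the data. The causes were not tested. For 58 named genes the mono-culture difference was computed under these settings, 49 to 58 of them in each, and none changed direction. Most were axis genes, in which the sides rarely overlap, so that leaving out a clone could hardly turn their direction. The threshold was a different matter. Of the 58, 43 no longer passed it without T, 41 without V, 32 without E, 28 without N and 25 without H. Without M it was 8, without K 0, and at an adjusted threshold of 0.05 it was 28. The labels do not say that a replicate number marks a shared batch. Of same-numbered pairs 22 of 84 in mono-culture and 29 of 84 in coculture correlated above 0.1, and 19 of 28 and 21 of 28 libraries correlated best with libraries of their own number, which is a hint of pairing from the data and not from the design.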
